A study of Mus musculus with 6 samples.

Results

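The genes described here are Fasn, Acaca, Scd1, Srebf1 and Mlxipl, which encode the main enzymes of hepatic fatty acid synthesis and 2 transcription factors that control them. Binding of thyroid hormone receptor β1 (TRβ1) around these genes was read from peak lists of 1 ChIP-seq study of mouse liver. Members were the peaks whose midpoint fell in a fixed window around each gene on the mm9 genome. The 5 windows lay on chromosome 11 at 120620000 to 120740000 (Fasn), 83890000 to 84270000 (Acaca) and 59960000 to 60090000 (Srebf1), on chromosome 19 at 44410000 to 44540000 (Scd1) and on chromosome 5 at 135510000 to 135670000 (Mlxipl). They held 128 of the 98191 peaks in the 3 lists. Of these, 72 came from livers with TRβ1 without injected hormone, 56 from livers with TRβ1 and hormone, and 0 from livers with GFP alone.

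The liver makes fatty acids from acetyl-CoA. Acetyl-CoA carboxylase (Acaca) forms malonyl-CoA, fatty acid synthase (Fasn) builds palmitate from it, and stearoyl-CoA desaturase (Scd1) introduces a double bond into the saturated product. Srebf1 encodes SREBP-1, a membrane-bound factor that is cleaved and activates lipogenic genes in response to insulin, and Mlxipl encodes ChREBP, which activates them in response to glucose. Thyroid hormone is a known regulator of liver lipogenesis. TRβ1 is a nuclear receptor that binds DNA with or without its ligand triiodothyronine (T3), typically as a partner of the retinoid X receptor.

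All animals were heterozygous BirA-expressing mice of 9 to 10 weeks, BirA being the ligase that puts biotin on a tagged protein. All spent 3 weeks on a diet with propylthiouracil (PTU), which blocks production of thyroid hormone, received an adenovirus through the tail vein and were then injected for 4 days. The GFP PTU group received virus with GFP alone and saline, the TRb PTU group received virus with GFP and biotinylated TRβ1 and saline, and the TRb T3 group received that same TRβ1 virus and T3. Each condition had 1 library, how many animals it pools is not stated, and no group lacked the PTU diet or the virus. The receptor came from a virus, and its level relative to the receptor of the liver itself is not given. Read depth is unknown, since the files hold peaks and no counts. Differences between conditions therefore carry no test, and each interval printed is an exact (Clopper-Pearson) 95% binomial one that treats peaks as counts and covers no other error. Fewer peaks in a list and a shallower library cannot be told apart.

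The windows also span neighbouring genes, so a peak is assigned to a window and not to a gene. In the order of protein-coding genes of the GRCm38.p6 assembly, Fasn stands between Dus1l and Ccdc57, Acaca between Tada2a and Gm11437, and Srebf1 between Rai1 and Tom1l2. Scd1 stands between its paralogue Scd4 and Wnt8b, and Mlxipl between Vps37d and Tbl2. No mm9 sequence was used here, so peak sequences are not shown. RefSeq promoters (250 bases before to 50 after a start site, GRCm38.p6) were found for 4 of the 5 genes, 7 promoters in all, with none for Scd1. These coordinates are of another build than the peaks and were not placed against them. The receptor half-site AGGTCA, searched on both strands, was in 0 of these 7 promoters and in 16.3% of 32851 promoters of all genes. A direct repeat of AGGTCA with 4 bases between the copies was likewise in 0 of the 7 and in 0.0152% of all. The 5-letter core GGTCA, a search added after the first result and held inside every AGGTCA, was in 2 of the 7 promoters and in 40.5% of all. Those 2 are shown 5′ to 3′ on the strand of the gene, with the core or its reverse complement in capitals. A match or its absence is a description of these letters and says nothing about binding. The Fasn promoter is on the minus strand at chr11:120824498-120824797, and the Srebf1 promoter, 1 of 3 listed for that gene, is on the minus strand at chr11:60210422-60210721 (both GRCm38.p6).
Fasn promoter: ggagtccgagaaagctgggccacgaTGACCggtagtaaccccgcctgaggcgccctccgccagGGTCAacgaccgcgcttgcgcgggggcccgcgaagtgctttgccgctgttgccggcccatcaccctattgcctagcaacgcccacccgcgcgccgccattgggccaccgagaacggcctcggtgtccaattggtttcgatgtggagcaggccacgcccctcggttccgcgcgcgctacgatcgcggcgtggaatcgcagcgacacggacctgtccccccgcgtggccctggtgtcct
Srebf1 promoter: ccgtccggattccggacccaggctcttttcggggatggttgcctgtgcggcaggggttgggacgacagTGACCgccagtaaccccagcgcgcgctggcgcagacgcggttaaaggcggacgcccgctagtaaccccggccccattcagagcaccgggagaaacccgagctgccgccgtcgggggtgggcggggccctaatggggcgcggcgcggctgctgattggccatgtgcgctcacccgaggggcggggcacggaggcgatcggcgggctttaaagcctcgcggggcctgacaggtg
The Fasn sequence holds the core once on each strand and the Srebf1 sequence holds it once on the reverse strand.

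TRβ1 peaks were present in all 5 windows with and without T3. A TRb PTU peak that shared at least 1 bp with a TRb T3 peak, or the reverse, is called shared, and the others PTU-only or T3-only. Of the 72 TRb PTU peaks in the windows, 39 were PTU-only (54.2%, interval 42.0 to 66.0%), against 46.1% of the whole TRb PTU list. Of the 56 TRb T3 peaks, 21 were T3-only (37.5%, interval 24.9 to 51.5%), against 38.7% of the whole TRb T3 list. Both intervals include the value of the whole list, so the pooled windows were not distinguished from the other peaks. The ratio of TRb PTU to TRb T3 peaks was 1.29 (interval 0.894 to 1.86), against 1.13 over the whole lists. No GFP PTU peak lay in any window, and the nearest GFP PTU peak was 6.78 to 11.2 Mb from a window edge. The GFP PTU list held only 107 peaks in all.

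**Figure D1:**
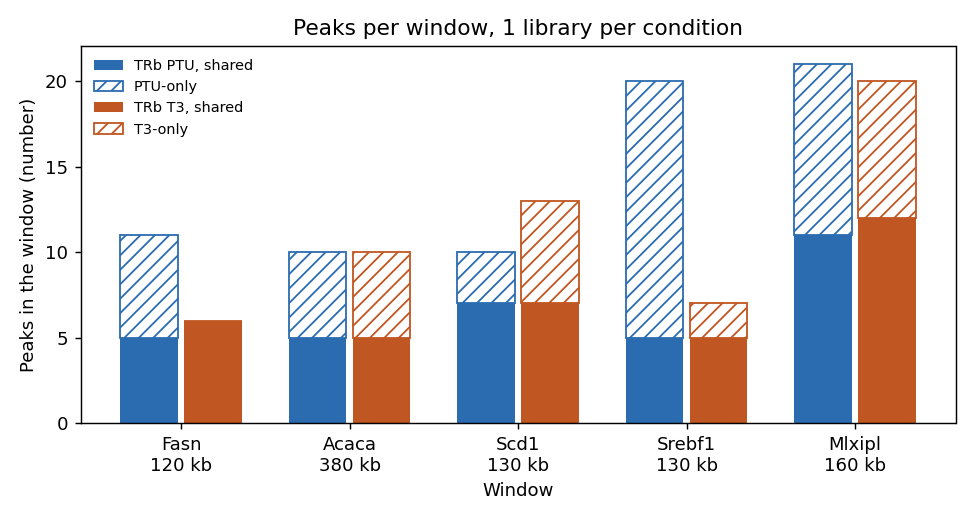
Number of TRβ1 peaks in each window in the TRb PTU (blue) and TRb T3 (orange) lists, with solid bars for shared and hatched bars for single-list peaks. The Srebf1 window had 20 TRb PTU against 7 TRb T3 peaks, the Scd1 window 10 against 13, and the Fasn window had 0 T3-only peaks.

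Counts varied between the windows, whose intervals all overlapped. The Srebf1 window held 20 TRb PTU and 7 TRb T3 peaks, a ratio of 2.86 (interval 1.16 to 8.0). The Fasn window held 11 and 6 (1.83, interval 0.621 to 6.04), and the Mlxipl window held 21 and 20 (1.05, interval 0.542 to 2.04). The Acaca window held 10 and 10, and the Scd1 window held 10 and 13 (0.769, interval 0.302 to 1.90). The Srebf1 interval lay just above the 1.13 of the whole lists and included the 1.33 of chromosome 11, and the intervals of the other 4 windows included both. With equal list lengths the Srebf1 ratio was 2.14 (15 and 7 peaks, interval 0.822 to 6.21). The 3 windows on chromosome 11 together had 41 TRb PTU and 23 TRb T3 peaks (1.78, interval 1.04 to 3.11). This interval includes the 1.13 of the whole lists and the 1.33 of chromosome 11. In those 3 windows 26 of the 41 TRb PTU peaks were PTU-only (63.4%, interval 46.9 to 77.9%), against 49.8% over chromosome 11, which lies inside the interval. The Srebf1 window alone gave 20 of the 41 TRb PTU peaks and 15 of the 26 PTU-only ones. In the Scd1 and Mlxipl windows together the counts were 31 and 33. Of the 31 TRb PTU peaks 41.9% were PTU-only (interval 24.5 to 60.9%), against 46.1% of the whole list. Of the 33 TRb T3 peaks 42.4% were T3-only (interval 25.5 to 60.8%), against 38.7% of the whole list. Both intervals include the share of the whole list. T3-only peaks made up 30.4% of TRb T3 peaks in the 3 chromosome 11 windows (interval 13.2 to 52.9%), against 32.3% over that chromosome.

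Srebf1, the gene of SREBP-1, had the widest gap between the conditions. Of its 20 TRb PTU peaks, 15 were PTU-only (75.0%, interval 50.9 to 91.3%), an interval that lies above the 46.1% of the whole list and the 49.8% of chromosome 11. Of its 7 TRb T3 peaks, 2 were T3-only (28.6%, interval 3.67 to 71.0%). This window was 1 of 5 examined and was not tested against the others. Windows of the same length laid end to end over chromosomes 1 to 19 and X, with at least 1 TRβ1 peak each, numbered 11124. A surplus of PTU-only over T3-only peaks of at least 13, as here, was found in 0.423% of them, and at least 20 TRb PTU peaks in 2.10%. At least 7 TRb T3 peaks were found in 22.1%. These windows were not matched to the Srebf1 window by peak number or chromosome. Their median was 3.0 TRb PTU peaks, so most held too few peaks to reach a surplus of 13. Of the 17 single-list peaks here, 88.2% were PTU-only (interval 63.6 to 98.5%), against 57.4% of the single-list peaks of both whole lists and 67.1% on chromosome 11, which lies inside the interval. In the upper 50% of scores of their list were 6 of the 15 PTU-only and 1 of the 2 T3-only peaks. Over the whole lists this held for 6812 of 23982 PTU-only and 5608 of 17816 T3-only peaks. The PTU-only share was 66.7% with equal list lengths (10 of 15, interval 38.4 to 88.2%). It was 70.0% with midpoints within 1 kb counted as the same site (14 of 20, interval 45.7 to 88.1%). With only peaks at or above the median score kept in both lists it was 60.0% (6 of 10, interval 26.2 to 87.8%). Each of these intervals includes the 46.1% and 49.8% above. Those shares come from the full lists at 1 bp overlap and were not recomputed under these settings. Whether the separation held or was lost there is therefore not known. With the window narrowed by 20% on each side the interval (48.8 to 90.9%) included 49.8%.

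Scores are the authors' own peak caller values. They serve to rank peaks within a list and are not compared in size between lists. The 2 T3-only peaks near Srebf1 lay together at the start of the window, at 59976166 to 59976360 (score 85.81) and 59978589 to 59978784 (15.39). The first of these was at percentile 89.0 of the TRb T3 list, and the nearest TRb PTU peak was 9290 bp away. Beyond them, from 59985651 to 59996067, came 5 PTU-only peaks and no TRb T3 peak. The highest-scored PTU-only peak was among these, at 59990226 to 59990463 (score 78.55, percentile 88.6 of its list), 11441 bp from the nearest TRb T3 peak. The other 10 PTU-only peaks lay between 60013169 and 60058274. Those up to 60023104 came before the first TRb T3 peak of that stretch, at 60023933, and the rest lay among or beyond the 5 shared sites. The highest-scored peak of both lists was a shared site near the far end of that stretch, at 60054128 to 60054377 in TRb PTU (83.59) and 60054086 to 60054376 in TRb T3 (90.70). No Srebf1 peak reached the top score decile of its list.

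**Figure D2:**
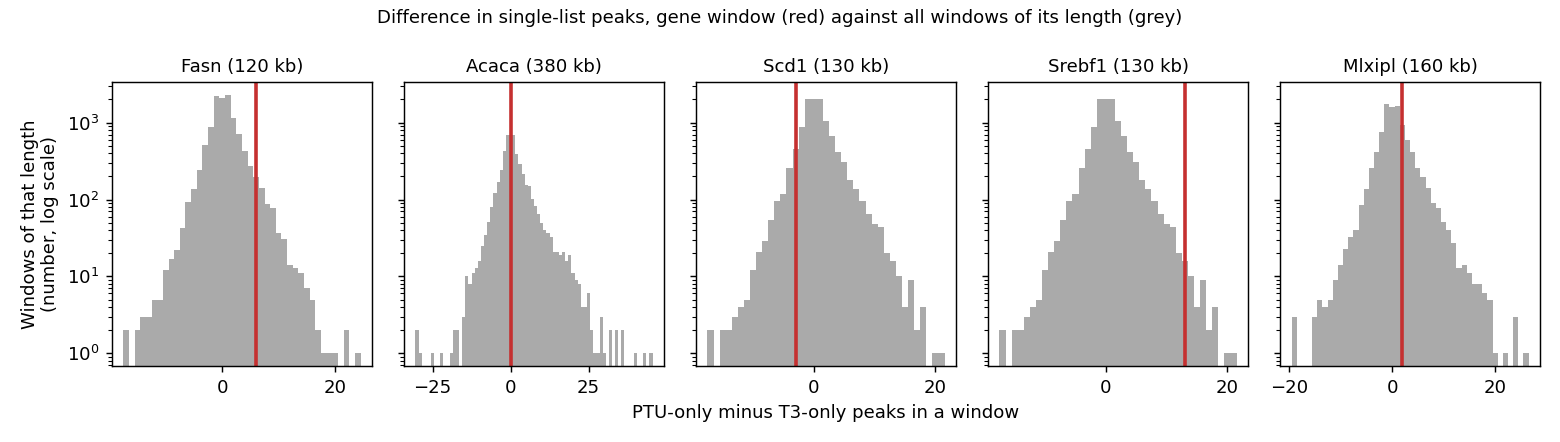
Distribution over the genome of the number of PTU-only minus T3-only peaks in windows of each gene window's length (grey, number of windows on a log scale), with the gene window's own value in red. Srebf1 at 13 lies in the upper tail, reached by 0.423% of windows, while Acaca at 0 and Mlxipl at 2 lie near the middle. The grey windows were not matched to the gene windows by peak number or chromosome.

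Mlxipl, the gene of ChREBP, had the most peaks and an even split. Of 21 TRb PTU peaks 10 were PTU-only (47.6%, interval 25.7 to 70.2%), and of 20 TRb T3 peaks 8 were T3-only (40.0%, interval 19.1 to 63.9%), both near the shares of the whole lists. At least 21 TRb PTU peaks were found in 2.85% and at least 20 TRb T3 peaks in 1.74% of 9665 windows of the same length. These each held at least 1 TRβ1 peak, and among them the Mlxipl window was rich in peaks in both conditions. The surplus of 2 PTU-only peaks was reached by 29.7% of such windows. Its highest peak was the highest of all 5 windows in both lists. It lay at 135511859 to 135512183 in TRb PTU (score 286.25, percentile 99.7) and at 135511834 to 135512226 in TRb T3 (270.08, percentile 99.6). This site was 2.02 kb inside the start of the window, and a further site, with scores 83.57 and 69.39, lay 1348 to 1360 bp outside it. The strongest site is thus at the edge, and the window narrowed by 20% on each side leaves it out. So narrowed, the window had 7 shared TRb PTU peaks with 5 PTU-only and 5 T3-only ones. In the full window, 3 of the 10 PTU-only and 4 of the 8 T3-only peaks were in the upper 50% of scores of their list. The whole lists had 6812 of 23982 PTU-only and 5608 of 17816 T3-only peaks there.

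About 4 kb further into the Mlxipl window, TRb T3 peaks lay side by side. A shared site at 135516282 to 135516643 in TRb T3 (score 170.20) was followed by the highest-scored T3-only peak at 135516701 to 135516926 (108.86, percentile 92.8), which began 127 bp beyond the end of the TRb PTU peak (126.77). This was the 1 T3-only peak among the 9 TRb T3 peaks of the windows in the top decile of the list. The highest-scored PTU-only peak was at 135556533 to 135556731 (41.69, percentile 74.9), 3469 bp from the nearest TRb T3 peak. The densest 20 kb of the window began at 135576565 and held 9 TRb PTU and 8 TRb T3 peaks. The widest peak of the windows was a TRb PTU peak of 993 bp at 135624702 to 135625694 (104.03), which overlapped 2 TRb T3 peaks, at 135624721 to 135625338 (37.80) and 135625430 to 135625599 (45.90). Between 135642599 and 135659613 the window held 4 PTU-only peaks and no TRb T3 peak, with scores from 2.59 to 16.28.

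**Figure D3:**
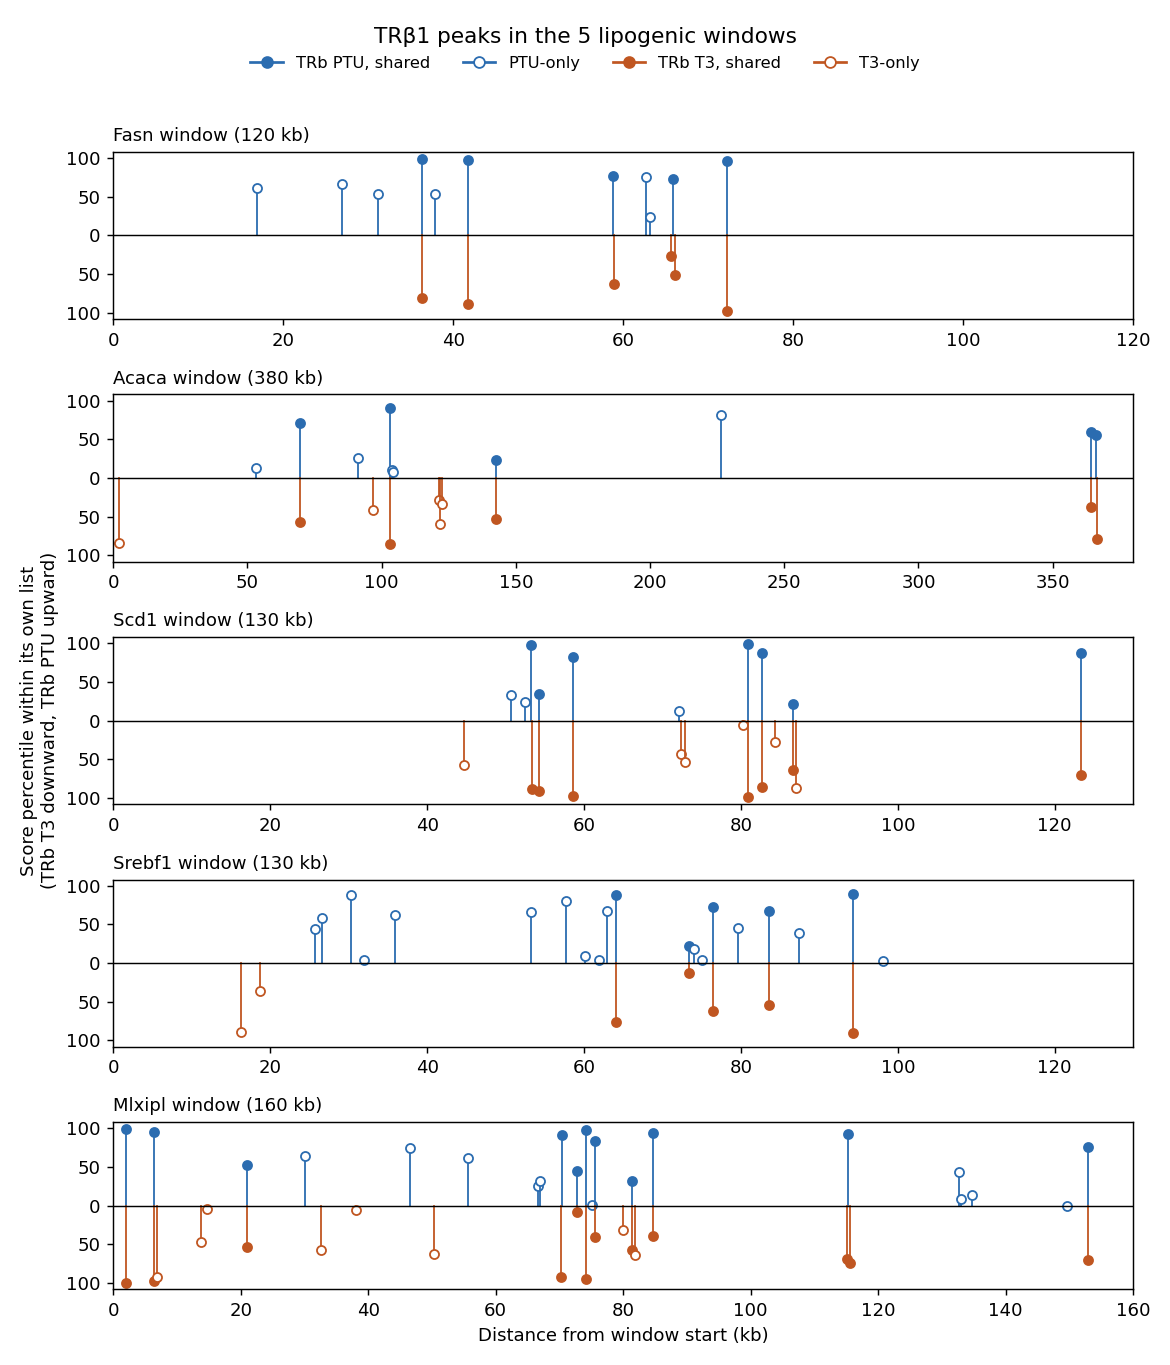
TRβ1 peaks along each window, by distance from the window start (kb), with height the percentile of the score within its own list, TRb PTU upward in blue and TRb T3 downward in orange. Filled points are shared peaks and open points are PTU-only or T3-only peaks; in the Srebf1 window 15 open points lie above the line and 2 below.

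Acaca, the gene of acetyl-CoA carboxylase, had the sparsest window. It was 380 kb long and held 3.95 merged sites per 100 kb, against 9.17 for Fasn, 12.3 for Scd1, 16.9 for Srebf1 and 18.1 for Mlxipl. Its counts were equal, with 5 shared, 5 PTU-only and 5 T3-only peaks. Windows of this length with at least 1 TRβ1 peak had 10.2 TRb PTU and 9.06 TRb T3 peaks on average. Windows without a TRβ1 peak were not counted. At least 10 TRb PTU peaks were found in 39.3% of 5076 such windows and at least 10 TRb T3 peaks in 37.1%. With equal list lengths, and also with midpoints within 1 kb counted as the same site, there were 3 PTU-only and 5 T3-only peaks, so the equality did not hold. In the upper 50% of scores of their list were 1 of the 5 PTU-only and 2 of the 5 T3-only peaks. Over the whole lists it was 6812 of 23982 PTU-only and 5608 of 17816 T3-only peaks. The highest-scored peak of both lists was 1 shared site at 83992919 to 83993260 in TRb PTU (score 87.70) and 83993002 to 83993240 in TRb T3 (71.26).

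The strongest Acaca peaks of a single list were far from any peak of the other. The highest-scored PTU-only peak, at 84116294 to 84116491 (54.47, percentile 81.6), was 83565 bp from the nearest TRb T3 peak, the greatest such distance in the 5 windows. It was followed by 137516 bp with no peak in either list, from 84116492 to 84254007. The highest-scored T3-only peak was at 83892196 to 83892405 (68.01, percentile 84.3), 2.30 kb inside the window start. Of the other 4 T3-only peaks, 3 lay between 84011198 and 84012734, with scores from 13.00 to 29.09 and no TRb PTU peak among them.

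Fasn, the gene of fatty acid synthase, had no T3-only peak in its window by overlap of at least 1 bp. It had 1 when midpoints within 200 bp were required, and 1 when the window was widened by 25 kb on each side. All 6 of its TRb T3 peaks overlapped a TRb PTU peak, so 0% were T3-only (interval 0 to 45.9%). Of the whole TRb T3 list 38.7% were T3-only, and 32.3% on chromosome 11. Of its 11 TRb PTU peaks 6 were PTU-only (54.5%, interval 23.4 to 83.3%), against 46.1% of the whole list and 49.8% on chromosome 11. Both intervals include these shares, so the Fasn window was not distinguished from the other peaks. A surplus of at least 6 PTU-only peaks was found in 5.35% of 11738 windows of this length with at least 1 TRβ1 peak. At least 6 TRb T3 peaks were found in 25.4% of them. The TRb PTU peaks were strong for their list, with 10 of 11 at or above its median score and 3 in its top decile. So were the TRb T3 peaks, with 5 of 6 at or above the median of their list and 1 in its top decile. Over the 5 windows 42 of 72 TRb PTU and 39 of 56 TRb T3 peaks were at or above the median. The highest TRb PTU peak near Fasn, at 120656128 to 120656473 (204.94, percentile 98.7), overlapped a TRb T3 peak with a score of 58.18. The next, at 120661434 to 120661952 (162.35), overlapped one with a score of 84.60. The highest TRb T3 peak was elsewhere, at 120691963 to 120692411 (183.56, percentile 98.1), over a TRb PTU peak with a score of 137.73.

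The PTU-only peaks near Fasn had scores from 10.23 to 42.82. The highest was at 120682536 to 120682776 (percentile 75.6), 2739 bp from the nearest TRb T3 peak, and 4 others lay between 120636796 and 120657931. None of the 6 lay within 1 kb of a TRb T3 peak, and the same share over all PTU-only peaks was not computed. A TRb PTU peak of 795 bp at 120685399 to 120686193 (39.47) overlapped 2 TRb T3 peaks of 185 and 174 bp (12.60 and 22.67). All peaks fell in 55616 bp of the 120 kb window, with none in either list after 120692411.

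Scd1, the gene of stearoyl-CoA desaturase, was the window with more peaks in TRb T3. Of its 13 TRb T3 peaks 6 were T3-only (46.2%, interval 19.2 to 74.9%), and of its 10 TRb PTU peaks 3 were PTU-only (30.0%, interval 6.67 to 65.2%). Both intervals include the shares of the whole lists. A surplus of at least 3 T3-only peaks was found in 9.46% of 11124 windows of this length with at least 1 TRβ1 peak. At least 13 TRb T3 peaks were found in 5.65% of them and at least 10 TRb PTU peaks in 14.9%. The highest-scored peak of both lists was a shared site at 44490686 to 44491159 in TRb PTU (235.28, percentile 99.2) and 44490668 to 44491201 in TRb T3 (224.42, percentile 99.1).

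Single-list peaks near Scd1 lay close to peaks of the other condition. The highest-scored T3-only peak, at 44496906 to 44497250 (76.89, percentile 86.9), was 186 bp from a TRb PTU peak with a score of 9.62. A PTU-only peak at 44481982 to 44482162 (7.77) and a T3-only peak at 44482302 to 44482481 (18.77) were 139 bp apart. The highest-scored PTU-only peak was weak for its list, at 44460649 to 44460873 (12.89, percentile 33.6). Of the 6 T3-only peaks 4 were within 1 kb of a TRb PTU peak, against 2 of 8 near Mlxipl, 0 of 2 near Srebf1 and 0 of 5 near Acaca. The same share over all T3-only peaks was not computed, so these counts are a description only. When peaks with midpoints within 1 kb counted as the same site, the Scd1 window had 2 T3-only and 1 PTU-only peaks, and the Fasn window had 6 PTU-only peaks, as before. In the upper 50% of scores of each list lay 3 of the 6 T3-only and 0 of the 3 PTU-only peaks near Scd1. Over the whole lists 5608 of 17816 T3-only and 6812 of 23982 PTU-only peaks lay there.

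Across the 5 windows, the strength of a peak went with whether it was shared. The median score was 12.89 for PTU-only and 59.56 for shared TRb PTU peaks, and it was 20.44 for T3-only and 40.06 for shared TRb T3 peaks. Over the whole lists these medians were 12.62 against 32.09 and 14.95 against 30.27. Shared peaks were also wider. The median width was 180 bp for PTU-only and 325 bp for shared TRb PTU peaks, and 196 bp for T3-only and 291 bp for shared TRb T3 peaks. Over the whole lists it was 184 against 240 bp and 170 against 212 bp. Score and width were not separated here. Of the 12 TRb PTU peaks in the top decile of their list, 0 were PTU-only (interval 0 to 26.5%), against 5.65% of that decile over the list. Of the 9 TRb T3 peaks in the top decile, 1 was T3-only (11.1%, interval 0.281 to 48.2%), against 8.70%. Among peaks in the upper 50% of their list by score, 15 of 42 TRb PTU peaks were PTU-only (35.7%, interval 21.6 to 52.0%, whole list 26.2%) and 10 of 39 TRb T3 peaks were T3-only (25.6%, interval 13.0 to 42.1%, whole list 24.3%).

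Shared sites were compared by rank. Where 1 TRb PTU peak met 1 TRb T3 peak and no other, as held for 27010 pairs in the whole lists and 31 in the windows, both scores were turned into percentiles among those pairs. Of the 31 pairs, 13 ranked higher in TRb T3 (41.9%, interval 24.5 to 60.9%), against 48.9% of all pairs. The midpoints of the 31 pairs differed by a median of 18.0 bp and at most 100.5 bp. Ranks differed by over 20 percentile points in 10 of them (32.3%), against 44.6% of all pairs.

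The order of the conditions differed between sites of 1 window. Near Fasn, 3 of 4 pairs ranked higher in TRb PTU, led by the site at 120656128, which went from percentile 97.6 in TRb PTU to 72.7 in TRb T3. Near Srebf1, 4 of 5 pairs ranked higher in TRb PTU, by 2.30 to 13.7 points, and the remaining site at 60054128 ranked 2.91 points higher in TRb T3. Near Scd1, 5 of 7 pairs ranked higher in TRb T3, led by the site at 44464168, which went from percentile 19.1 in TRb PTU to 86.1 in TRb T3. The sites at 44496576 and 44468480 ranked 41.9 and 26.2 points higher in TRb T3, while the strongest Scd1 site differed by 0.0111 points.

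Near Mlxipl, 4 of 10 pairs ranked higher in TRb T3. Sites within 10 kb of each other ranked in opposite directions there. The sites at 135585445 and 135594452 went from percentile 72.1 to 29.2 and from 89.4 to 27.6 between TRb PTU and TRb T3, while the site at 135591300 between them went from 17.2 to 44.7. The strongest Mlxipl site was at percentile 99.4 in both. Near Acaca, 2 of 5 pairs ranked higher in TRb T3, by 29.0 points at 84032578 and 32.7 points at 84255968, and the other 3 ranked 4.60 to 15.4 points higher in TRb PTU.

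**Figure D4:**
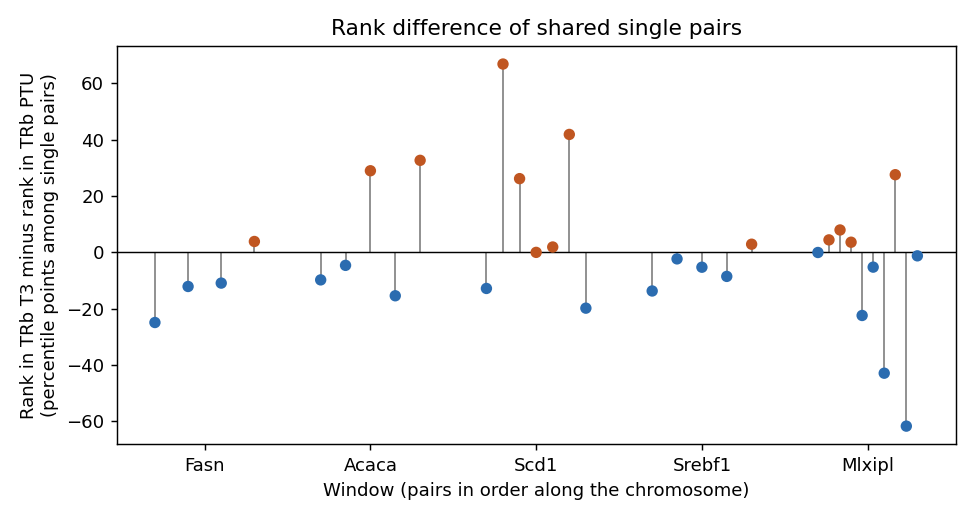
Rank difference of the 31 single pairs, as the percentile in TRb T3 minus that in TRb PTU among 27010 pairs, in order along the chromosome within each window. Points above 0 (orange) rank higher in TRb T3; the largest differences are 66.9 points near Scd1 and -61.7 points near Mlxipl.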

How the data were processed

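The deposited files are peak lists of 3 ChIP samples, 1 per condition, and the 3 input samples in the labels were not analysed here. The authors' lists give a position, a name and a score per peak, and the score is the peak caller's value, with no statement in the deposited files of which statistic it is. Bowtie, SAMtools and MACS2 and the build mm9 are named per the submitters' processing notes, and versions, settings, control and filters are not stated there. Samples were grouped by title. Peaks were assigned to windows by midpoint and overlapped at 1 bp or more, and positions are 1-based. Overlaps were checked on simulated lists. The members, windows and lists were chosen with earlier results of these data known. Peaks named are, in each window, the highest-scored of each list and of each single-list class, and the shared pairs with the largest rank differences. Others were picked after their values were seen. Other genes of the pathway were planned only with an mm9 annotation and were not placed. Alternatives were other overlap rules, a median score filter, equal list lengths, removal of GFP sites, other window edges, each window left out, and ranks within a chromosome. The software was Python 3.11.15 with scipy 1.17.1, pandas 2.3.3, numpy 2.4.6 and matplotlib 3.10.9.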

Additional observations from a re-analysis of the deposited data

How the results depend on the processing

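No paired analysis was possible because there was only 1 library in each condition. The 4 pooled values (both single-list shares, the ratio of peak numbers and the share of pairs ranking higher in TRb T3) stayed within their intervals in all 48 recomputations. Some of these could not move. No peak of the windows overlapped a GFP PTU peak, so removal of GFP sites left every pooled value and window count as it was. The ratio does not depend on the overlap rule. The PTU-only share (54.2%) ran from 42.9% with the median score filter on both lists to 58.1% without the Scd1 window, and was 46.2% without the Srebf1 window. The T3-only share (37.5%) ran from 26.8% for midpoints within 1 kb to 42.0% without the Fasn window. The ratio (1.29) ran from 1.06 without the Srebf1 window to 1.44 without the Scd1 window. The share of pairs ranking higher in TRb T3 (41.9%) ran from 33.3% without the Scd1 window to 46.2% without the Srebf1 window. Of 135 recomputed counts for single windows, 21 moved by over 1.5 times, 9 of them under the median score filter, which removes peaks and can also make a shared peak single by removing its partner. Of the 7 promoters, 0 held the half-site and 2 held its 5-letter core, a search added after seeing the data. Unknown depth and 1 library per condition limit every comparison of peak numbers.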

Other observations

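Peaks lay up to the edges of some windows. Within 25 kb on either side, the Fasn window had 6 further TRb PTU and 3 TRb T3 peaks, the Mlxipl window 5 and 5, the Acaca window 4 and 2, the Scd1 window 2 and 4 and the Srebf1 window 0 and 1. The more peak-rich condition was thus the same outside as inside at Fasn and at Scd1. It was not at Srebf1, which had 20 TRb PTU and 7 TRb T3 peaks inside. The Acaca window had 10 and 10 inside, and the Mlxipl window 21 and 20. These flanking counts are small and were not tested. At Srebf1 the nearest TRb PTU peak outside the window was 31028 bp from its edge, and the nearest TRb T3 peak, at 59947472 to 59947641 (score 31.30), was 12443 bp from it. Outside the Scd1 window the nearest TRb PTU peak, at 44388862 to 44389238, had a score of 160.12, above the TRb PTU scores of 8 of the 10 peaks inside.

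Merged over both lists, the 5 windows held 93 sites, of which 33 were in both lists, 39 in TRb PTU alone and 21 in TRb T3 alone. Of the 88 gaps between neighbouring sites of a window, 24 were shorter than 1 kb. The share of the window covered by peaks ran from 0.919% at Acaca to 5.26% at Mlxipl. Of the 39 PTU-only peaks 16 were over 5 kb from any TRb T3 peak, and of the 21 T3-only peaks 11 were over 5 kb from any TRb PTU peak. The same shares over all single-list peaks were not computed, so these counts describe the windows and set them apart from nothing.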
